A study of Mus musculus with 60 samples.

Results

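Islets of mice in which the MYC transgene was left inactive were compared at 16 hours of treatment with the same kind of islets at 8 and 32 hours, which lie 24 h apart. The rule for choosing arrays used labels, but was set with earlier results of these data known. It asked for no active MYC (labelled MycOFF) and a label time of 8, 16 or 32 h. Arrays that the submitters left out for poor reproducibility were not taken. This gave 16 of the 60 arrays of the series, 5 at 16 h, 5 at 8 h and 6 at 32 h. The submitters left out 2 further MycOFF arrays of these times, 1 water array at 8 h and 1 at 16 h, and kept 52 arrays in all.

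All mice of the series were male pIns-MYCERTAM mice of a CBA-C57BL/6 background, whose beta cells make MYC fused to an altered oestrogen receptor from an insulin promoter, so the controls described here carried the transgene too. MycOFF mice received peanut oil, the carrier of 4-hydroxytamoxifen (4OHT), while MycON mice received 1 mg of 4OHT a day into the abdominal cavity, which switches the fusion protein on. Each mouse also received exendin-4 (exenatide, an agonist of the GLP-1 receptor) by subcutaneous injection (50 µg/kg), or water instead, starting 2 days earlier. The 16 arrays were 3 exenatide and 2 water arrays at 8 h, 3 and 2 at 16 h, and 3 and 3 at 32 h. The labels disagree on age, which is 8 to 12 weeks in one place and 3 months in another. Laser capture from frozen sections (15 µm thick) gave the islets, and each Affymetrix array took 6 µg of RNA. The labels call the arrays of a group biological replicates without tying them to animals, so p-values measure the spread between these arrays. They give no clock time of injection or harvest, so time of day, time since the injection and the number of oil injections cannot be told apart, and "daily" below refers only to the 24 h between 8 and 32 h.

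The circadian clock is a loop of transcription factors that runs in nearly every mammalian cell, pancreatic islets included. BMAL1 (gene Arntl) and CLOCK bind E-box sequences and switch on Per and Cry genes, whose proteins return to inhibit BMAL1 and CLOCK. The same pair switches on Nr1d1 and Nr1d2, which encode the REV-ERB repressors of Arntl, Nfil3 and Cry1, and Dbp, an activator that acts on D-box elements. In most tissues Dbp and the Nr1d genes peak together, and Arntl, Npas2, Nfil3 and Cry1 peak at other hours of the day. In islets the clock is known for its part in the daily course of insulin secretion.

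The promoters of the 2 clock genes with the smallest p in the comparison are shown first. The sequences are the 250 bases before the annotated start, from RefSeq on GRCm38.p6, written 5′ to 3′ in the direction of the gene. Cry1 lies at chr10:85185055-85185304 on the minus strand and Dbp at chr7:45704997-45705246 on the plus strand. In the Cry1 promoter the second run of capitals is a CACGTG E-box beginning 60 bases before the start. The first run, AACGTG, is CACGTT, an E-box variant, on the other strand, beginning 79 bases before the start.

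Cry1: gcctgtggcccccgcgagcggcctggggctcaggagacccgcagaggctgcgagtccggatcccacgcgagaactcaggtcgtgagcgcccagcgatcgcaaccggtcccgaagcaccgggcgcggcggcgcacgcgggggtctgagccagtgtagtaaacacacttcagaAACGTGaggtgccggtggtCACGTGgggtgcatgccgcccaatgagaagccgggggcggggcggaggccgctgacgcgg

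Dbp: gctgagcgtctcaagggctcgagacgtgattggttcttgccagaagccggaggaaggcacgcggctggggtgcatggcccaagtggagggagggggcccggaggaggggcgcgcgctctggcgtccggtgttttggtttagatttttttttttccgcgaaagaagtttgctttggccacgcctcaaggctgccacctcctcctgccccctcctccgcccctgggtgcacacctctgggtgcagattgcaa

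The Dbp window held none of the 4 motifs searched, which says only that these letters are not in this window. Windows of 300 bases that also take in the first 50 after the start were searched on both strands for the E-box CACGTG and its variant CACGTT, for the D-box TTATGTAA, and for the REV-ERB and ROR element TAGGTCA. Of 24 windows of 18 core clock genes, CACGTG was found for 5 genes (Bhlhe41, Ciart, Cry1, Per1 and Tef), CACGTT for 4, TTATGTAA for Per3 alone and TAGGTCA for Arntl and Nfil3. Counted by window, the 4 motifs were in 6, 4, 1 and 2 of the 24. Over all 32851 windows the shares were 7.15%, 4.68%, 0.938% and 2.61%. The last motif is shown for its 2 carriers with the match in capitals, and no binding was measured in this series. The Arntl site is at chr7:113207530-113207559, plus strand, with the match beginning at base 31, where the start is the first base counted. The Nfil3 site is at chr13:52981033-52981062, minus strand, with the match on the opposite strand and beginning 12 bases before the start.

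Arntl: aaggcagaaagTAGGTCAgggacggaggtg

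Nfil3: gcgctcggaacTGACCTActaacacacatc

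The values are log2 expression, which the submitters centred so that each probe set has a median of 0 over the 60 arrays. A value is therefore a distance from that gene's own median, levels cannot be read or compared between genes, and islet identity could not be checked against absolute marker levels. Of 18193 genes named on the array, 13176 passed a filter on spread and were tested, each by its most variable probe set. Library depth has no counterpart here, and the number of arrays limits the precision: the median standard error of the difference between 16 h and the other times was 0.262. For 89.9% of genes the 95% interval was narrower than 1 log2 unit (a doubling) to either side. Exenatide 16 h replicate 3 stood apart. The standard deviation of its values over genes was 1.26, against 0.41 to 0.80 in the other 15 arrays, and its mean over the acinar markers was 3.45 and over the skeletal muscle markers 3.68. Gene lists and single genes that it moves are given with and without it. No scan or extraction date was given in the labels.

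No gene differed between 16 h and the 8 and 32 h islets at an adjusted p under 0.05 (limma with injection as covariate, Benjamini-Hochberg over all genes; 0 of 13176, 0%). The smallest adjusted p was 0.0575. At an unadjusted p under 0.05 there were 744 genes, 5.65% of those tested, 374 higher at 16 h (2.84%) and 370 lower (2.81%). The median difference over all genes was -0.02, and 47.8% of genes lay above 0. Without exenatide 16 h replicate 3 there was again no call, and 401 genes had an unadjusted p under 0.05, 300 of them higher. Leaving out exenatide 16 h replicate 2 instead gave 2162 genes at an unadjusted p under 0.05, also with no call. The clock genes, the genes nearest the threshold and other gene groups are therefore given as measurements that failed the correction. In whole islets, fewer cells of a type and less RNA per cell cannot be told apart.

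Of 20 core clock genes named on the array, 17 were tested, and Nr1d1, Bhlhe40 and Bhlhe41 were below the filter on spread. None of the 17 passed the threshold in MycOFF islets. At an unadjusted p under 0.05, 2 were higher at 16 h, Cry1 and Npas2, and 2 were lower, Dbp and Nr1d2, beside 2.84% and 2.81% of all genes. Without exenatide 16 h replicate 3 these were Cry1 and Arntl higher and Dbp lower. The adjusted p of each of these 4 was 0.718.

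**Figure D1:**
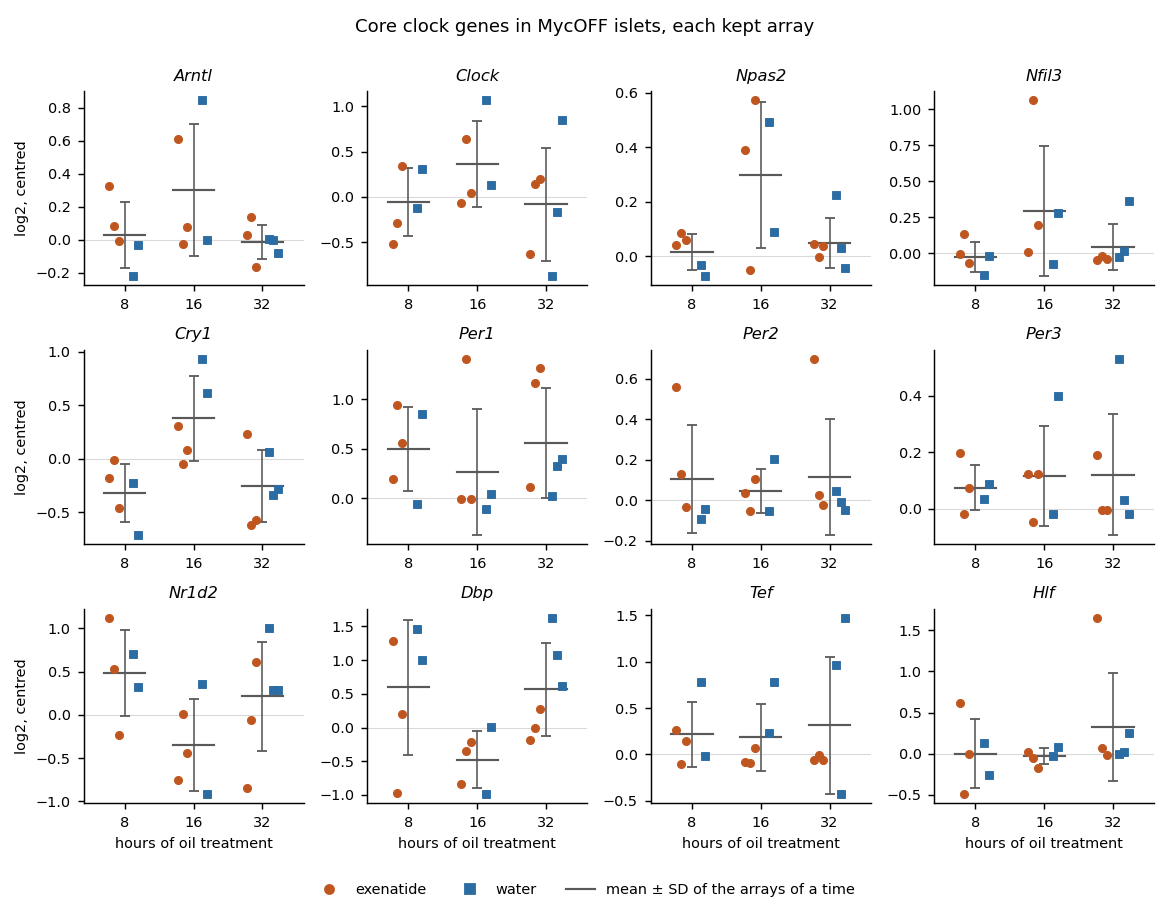
Log2 expression, centred per gene (vertical axis, scale differs between panels), of 12 core clock genes in each kept MycOFF array at 8, 16 and 32 hours of oil treatment; circles are exenatide arrays, squares water arrays, and the bars give the mean and SD of the arrays of a time. The 16 h arrays of Dbp lie between -0.99 and 0.0025, below the mean of 0.60 at 8 h and 0.57 at 32 h. Those of Cry1 lie between -0.05 and 0.93, and the highest array of the other times is at 0.23, so the groups overlap.

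Dbp, the D-box activator that is among the most strongly rhythmic genes of many tissues, had the largest difference of the 17. In the exenatide arrays it was 1.28, -0.97 and 0.19 at 8 h and -0.84, -0.35 and -0.22 at 16 h. In the water arrays it was 1.47 and 1.01 at 8 h and -0.99 and 0.0025 at 16 h. The 6 arrays at 32 h ran from -0.19 over a median of 0.44 to 1.62. All 5 arrays at 16 h lay below the median of the others and 10 of the 11 others lay above the median of 16 h, but the groups overlapped through 1 exenatide array at 8 h and the low arrays at 32 h. The difference was -1.02 ± 0.32 (SE, n = 5 and 11; 95% interval -1.70 to -0.34), a 2.03-fold difference. A second Dbp probe set gave -0.67, against -1.06 for the shown one in the same plain difference of means.

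Nr1d2 encodes REV-ERB beta, a repressor that is driven by BMAL1 and CLOCK as Dbp is. Its values at 16 h were -0.75, 0.015 and -0.44 with exenatide and 0.36 and -0.92 with water. At 8 h they ran from -0.23 over a median of 0.53 to 1.12, and at 32 h from -0.85 over 0.29 to 1.00. The groups overlapped widely at the low end, with 4 of the 5 arrays of 16 h below the median of the others. The difference was -0.67 ± 0.29 (SE; interval -1.29 to -0.06), and the second Nr1d2 probe set gave 0.02. Nr1d1, the gene of REV-ERB alpha, varied too little over the arrays to be tested, and its difference was -0.01.

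Cry1, an inhibitor of BMAL1 and CLOCK and itself repressed by REV-ERB, had the smallest p of the clock genes. At 16 h it was 0.31, -0.05 and 0.08 in the exenatide arrays and 0.93 and 0.62 in the water arrays. At 8 h it ran from -0.72 over a median of -0.23 to -0.01, and at 32 h from -0.62 over -0.31 to 0.23. All 5 arrays of 16 h lay above the median of the others and none of the 11 others lay above the median of 16 h. The groups overlapped, since the 16 h arrays at -0.05 and 0.08 lay below the highest of 32 h. The difference was 0.67 ± 0.18 (SE; interval 0.29 to 1.06, a 1.60-fold difference; limma, adjusted p = 0.718). Cry1 has 1 probe set on this array.

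Of the other repressors none reached an unadjusted p under 0.05. Per1, which responds fast to hormones and cAMP as well as to the clock, differed by -0.29 ± 0.26 (SE), with 1 exenatide array at 1.41 above the remaining 4 of 16 h and a difference of -0.54 without it. Per2 differed by -0.07 (interval -0.36 to 0.21) and Per3 by 0.02 (interval -0.22 to 0.26) on the probe sets tested. Other probe sets of these genes spread wider, from -0.34 to -0.0096 for Per2 and from -0.12 to 0.52 for Per3. Cry2 differed by -0.30 ± 0.42, which became -0.67 without exenatide 16 h replicate 2 and 0.04 without replicate 3. Ciart, a further inhibitor of BMAL1 and CLOCK, differed by 0.11 ± 0.13, and by -0.05 without exenatide 16 h replicate 3. Nfil3, the repressor that competes with DBP for D-boxes, differed by 0.28 ± 0.16 (interval -0.06 to 0.61), and by 0.09 without exenatide 16 h replicate 2, and 4 of its 5 arrays of 16 h lay above the median of the others.

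The 6 tested activators all had a difference above 0, beside 47.8% of all genes, with a median of 0.33 against -0.02 over all genes. At an unadjusted p under 0.05, 1 was higher, beside 2.84% of all genes. Npas2, a relative of CLOCK, was 0.39, -0.05 and 0.57 in the exenatide arrays of 16 h and 0.49 and 0.09 in the water arrays, while the 11 others ran from -0.07 to 0.23. Its difference was 0.26 ± 0.11 (SE; interval 0.02 to 0.50), but its second probe set gave 0.01. Arntl differed by 0.29 ± 0.15, Clock by 0.44 ± 0.26, Arntl2 by 0.39 ± 0.32, Rorb by 0.25 ± 0.15 and Rora by 0.37 ± 0.55. Of these 5 genes none passed the test, and the second probe set gave 0.02 for Arntl and 0.00059 for Arntl2. Single arrays moved several: Arntl was 0.13 and Clock 0.27 without water 16 h replicate 2, and Arntl2 was 0.17 without exenatide 16 h replicate 1. The 8 other Rora probe sets ran from -0.28 to 0.24. Without exenatide 16 h replicate 3 the median of the activators was 0.27, with Rora at -0.03 and Rorb at 0.08. Of the 2 relatives of Dbp, Tef differed by -0.06 ± 0.24 and Hlf by -0.22 ± 0.25, and neither passed. Another Tef probe set gave -0.44 and the remaining one 0.02, and Hlf was -0.06 without exenatide 32 h replicate 1.

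Dbp, Nr1d2, Cry1 and Nfil3 were followed into the arrays that the comparison left out. Nfil3 had not reached an unadjusted p under 0.05 at 16 h. Npas2, which had, ran from -0.07 to 0.63 at 4 h and from -0.13 to 1.59 at 72 h. At 4 h Dbp was -0.85 ± 0.81 (SD, n = 6) and Nr1d2 was -0.51 ± 0.87, both under their means at 8 h, which were 0.60 ± 1.00 and 0.49 ± 0.50 (n = 5). At 72 h Dbp was -0.38 ± 0.79 and Nr1d2 -0.27 ± 0.83 (n = 5). Cry1 was -0.33 ± 0.38 at 4 h, -0.32 ± 0.27 at 8 h, 0.38 ± 0.40 at 16 h, -0.26 ± 0.34 at 32 h and 0.21 ± 0.36 at 72 h. Nfil3 ran from 0.61 to 2.04 at 4 h, all 6 arrays above the 5 of 8 h, whose highest was 0.13. The SDs of neighbouring times overlapped for Dbp and Nr1d2.

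**Figure D2:**
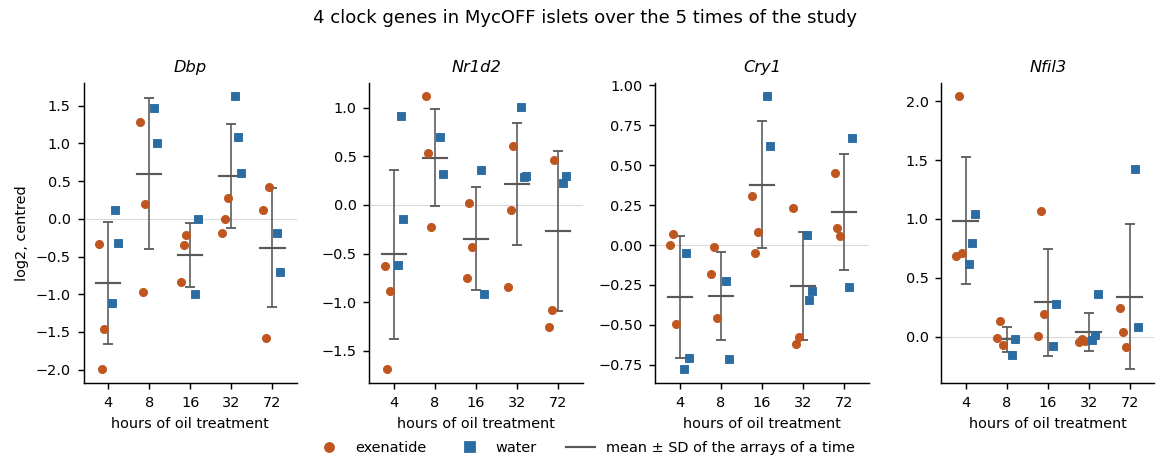
Centred log2 expression of Dbp, Nr1d2, Cry1 and Nfil3 in each kept MycOFF array at 4, 8, 16, 32 and 72 hours of oil treatment (circles exenatide, squares water, bars the mean and SD of a time). Dbp is highest at 8 and 32 h, with means of 0.60 and 0.57, and Nfil3 is highest at 4 h, with a mean of 0.98.

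A curve with a period of 24 h, fitted to all 27 kept MycOFF arrays, called no gene either (moderated F test of limma, 0 of 13176, 0%; 792 at an unadjusted p under 0.05, 6.01%, which became 1545 without exenatide 16 h replicate 2 and 446 without replicate 3). Its smallest p belonged to Stradb, a pseudokinase, with an amplitude of 0.66, followed by the small heat shock protein gene Cryab and by Psrc1, a spindle protein gene. Cry1 had an amplitude of 0.42 with its fitted peak at 18.6 h of the curve. Dbp had an amplitude of 0.69 with its peak at 10.2 h, Nr1d2 had one of 0.43 and Nfil3 one of 0.37. At an unadjusted p under 0.05, Cry1 and Dbp passed and Nr1d2 and Nfil3 did not. Curve times count from the start of treatment and are not clock times. The adjusted p of each of these 4 genes was 0.73 or above.

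Nr1d2 was the gene whose course was most like that of Dbp over the 27 arrays, with a Pearson correlation of 0.67, given as a description over arrays that share times and injections. Next came Cfap126, a cilia gene, at 0.64, Abcb4, a phospholipid transporter gene, at 0.63, Inca1 at 0.63 and Tmem25 at 0.63. In the 16 h comparison Cfap126 differed by -0.76 ± 0.23, Abcb4 by -0.35 ± 0.31, Inca1 by -0.34 ± 0.22 and Tmem25 by -0.03 ± 0.35. None of the 4 passed the threshold. The correlation that picked them used the arrays of this comparison too, so these differences are not independent of the picking.

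The 8 and 32 h arrays, 24 h apart, were compared with each other. No gene passed (limma on the 3 times, 0 of 13176, 0%), and 334 genes, 2.53%, had an unadjusted p under 0.05. In this comparison Dbp differed by -0.10 (interval -0.90 to 0.69), Nr1d2 by -0.30 and Cry1 by 0.05 (-0.40 to 0.50). The interval of Dbp thus reaches nearly as low as its difference at 16 h. The smallest p belonged to Tmem108 (-1.25), Rbm28 (1.11) and Hpgd (1.13), the last an enzyme gene of prostaglandin breakdown. Taken separately, 16 h against 8 h gave 748 genes at an unadjusted p under 0.05 (5.68%) and 16 h against 32 h gave 485 (3.68%), with no call in either. Without exenatide 16 h replicate 2 these became 1830 and 1388, the first was 460 without replicate 3, and the second was 320 without exenatide 32 h replicate 3. Both use the same 5 arrays of 16 h. Dbp was -1.08 in the first and -0.97 in the second, Cry1 0.70 and 0.65, and Nr1d2 -0.84 and -0.53.

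Whether the 16 h difference depended on the injection was tested as an interaction, and no clock gene passed. Dbp differed by -1.65 in the 7 water arrays and -0.57 in the 9 exenatide arrays, and Cry1 by 1.08 and 0.39. The interaction of injection with time was 1.08 for Dbp and -0.69 for Cry1, exenatide minus water (limma, adjusted p = 0.999 for each). Nfil3 went the other way, at 0.06 in the water arrays and 0.43 in the exenatide arrays. No gene passed this interaction (0 of 13176, 0%; 537 at an unadjusted p under 0.05, 4.08%). Its smallest p belonged to Insm2, a zinc finger gene of endocrine cells, at 1.67 with water and 0.06 with exenatide, then to Plk2, a kinase gene, at 1.09 and -0.08, and to Ggnbp2 at -1.24 and 1.71.

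Beyond the clock, the 12 genes of smallest p are named here after their values were seen, and none passed. Ildr2, a membrane protein gene of the immunoglobulin superfamily, was 0.99, 0.68 and 1.00 in the exenatide arrays of 16 h and 1.07 and 0.39 in the water arrays. The 11 others ran from -0.34 to 0.35, so the groups did not overlap. The difference was 0.98 ± 0.14 (SE; limma, adjusted p = 0.0575), a 1.98-fold difference just short of the threshold. Of its 2 other probe sets, 1 gave 0.34 and 1 gave 0.05. Ildr2 passed without water 16 h replicate 3 (adjusted p = 0.0214) and without water 32 h replicate 1 (0.0069), and in no other fit that left out 1 of the 16 arrays. At 72 h its arrays ran from -0.29 to 6.27.

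Gbp2, an interferon-induced GTPase gene, had the next smallest p. Its 16 h arrays were 1.12, 0.68 and 0.51 with exenatide and 0.81 and 0.29 with water, above all 11 others, whose highest was 0.01. The difference was 1.10 ± 0.18 (SE; limma, adjusted p = 0.14), and its second probe set gave 0.30. Iigp1, also interferon-induced, was 1.48 ± 0.41 (SE) higher in this comparison, with an adjusted p of 0.718.

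Col4a1, a chain of basement membrane collagen, ran from 0.48 to 0.83 at 16 h, above the highest of the others at 0.44. The difference was 0.77 ± 0.15 (SE; limma, adjusted p = 0.513), and a second Col4a1 probe set gave -0.00018, on which the groups' means did not differ. Tnfaip2, a gene induced by tumour necrosis factor, differed by 1.08 ± 0.22 (SE). The matrix genes Pcolce (1.06 ± 0.25) and Lum (0.96 ± 0.23), the caveolin gene Cav2 (1.26 ± 0.29) and the cyclin-dependent kinase gene Cdk14 (-1.02 ± 0.23) followed, with Cnot4 at 0.96, Zfp420 at 0.88 and Cryab at 0.76. Other probe sets of these genes gave smaller differences: at most 0.05 for Tnfaip2, 0.29 for Pcolce, 0.01 for Cav2, 0.14 for Cnot4, 0.40 for Zfp420 and 0.07 for Cryab, and -0.10 and 0.01 for Cdk14. Fabp3, a fatty acid carrier gene, had the lowest of these values: its 16 h arrays ran from -1.36 to 0.03 and the 11 others from 0.13 to 1.75, a difference of -1.17 ± 0.27 (SE). Its second probe set gave 0.21. In all, 3 genes were above (Ildr2, Gbp2 and Col4a1; 0.0228% of those tested) and 2 below (Fabp3 and Leng1; 0.0152%) in every 16 h array without overlap.

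**Figure D3:**
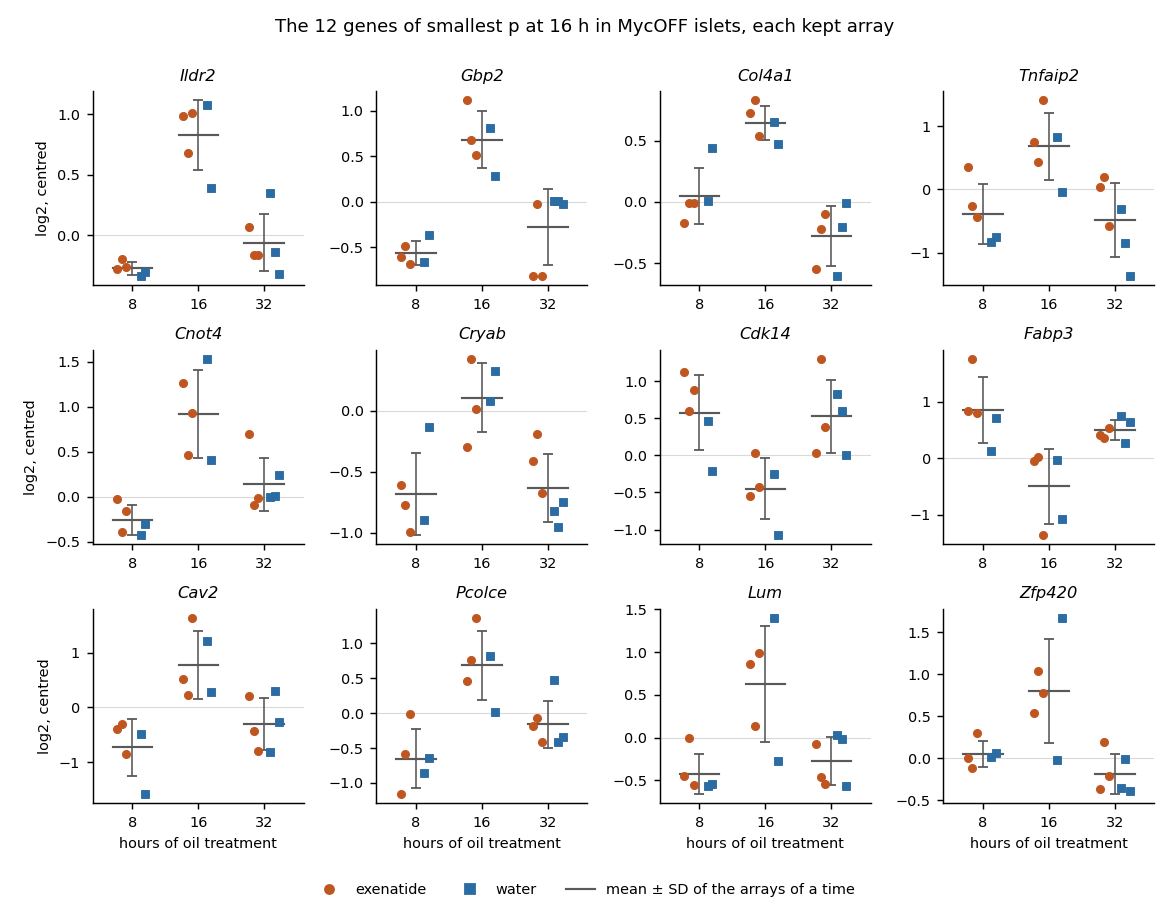
Centred log2 expression of the 12 genes of smallest p in each kept MycOFF array at 8, 16 and 32 hours of oil treatment (circles exenatide, squares water, bars the mean and SD of a time). Ildr2, Gbp2, Col4a1 and Fabp3 separate all 5 arrays of 16 h from the 11 others, and Ildr2 has the smallest adjusted p, 0.0575.

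Lum and Pcolce are genes of fibroblasts. Of the 12 tested stromal markers 9 were above 0, beside 47.8% of all genes, with a median of 0.45 (0.27 without exenatide 16 h replicate 3). At an unadjusted p under 0.05, 2 were higher, beside 2.84% of all genes. These were Lum and Pdgfra (0.98 ± 0.28, whose other probe sets gave -0.02 and 0.15). The mean of the stromal markers ran from -0.40 to 0.58 in the 16 h arrays, from -0.72 to 0.07 at 8 h and from -0.69 to 0.26 at 32 h, so the times overlapped. Their part in the results for Col4a1, Pcolce and Lum was not tested. Of 9 endothelial markers, 1 was higher at an unadjusted p under 0.05, Cdh5 (0.39 ± 0.13), beside 2.84% of all genes. Their median was 0.01 with 5 above 0, and 0.11 with 8 above 0 without exenatide 16 h replicate 3.

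No member of the other gene lists passed the threshold in MycOFF islets. Over all genes 47.8% were above 0, and at an unadjusted p under 0.05 2.84% were higher and 2.81% lower. Of 10 tested kinases, ubiquitin ligases and partners of clock proteins, 2 had an unadjusted p under 0.05: Timeless, a replication fork protein gene named for its fly clock relative, at 0.81 ± 0.23 (0.01 on its second probe set), and Fbxw11, a ubiquitin ligase subunit that acts on PER proteins, at -0.91 ± 0.40. Exenatide 16 h replicate 3 had Fbxw11 at -3.04, the difference was -0.46 without it, with an unadjusted p above 0.05, and 4 other probe sets ran from 0.03 to 0.51. Of 18 tested genes known as clock-controlled in many tissues, 5 were above 0 and 13 below, with a median of -0.14 (0.03 without exenatide 16 h replicate 3) and none at an unadjusted p under 0.05. The smallest p among them belonged to Ypel2 (0.66 ± 0.38) and Tspan4 (-0.28 ± 0.20). Of 18 glucocorticoid-induced genes, 13 were above 0, with a median of 0.29 and 2 at an unadjusted p under 0.05, Angptl4 (0.76 ± 0.30) and Cebpd (0.94 ± 0.39), beside 2.84% of all genes. Without exenatide 16 h replicate 3 the median was 0.24, 15 of the 18 were above 0 and none had an unadjusted p under 0.05. The cytosolic heat shock genes had a median of -0.09 over 17, which was 0.17 without the same array, with the inducible chaperone gene Hspa1b at 1.46 ± 0.52. The 2 tested cold-inducible genes, Cirbp (-0.16 ± 0.13) and Srsf5 (-0.10 ± 0.43), did not pass.

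Signalling and growth lists showed medians on either side of 0, and 47.8% of all genes lay above 0. Of 14 targets of cAMP and CREB, the pathway through which GLP-1 receptor agonists act, 9 were below 0 with a median of -0.37 (-0.0028 without exenatide 16 h replicate 3), and Cited2, a transcription cofactor gene, stood at 1.03 ± 0.32 (-0.08 on its second probe set). The 18 immediate early genes had a median of 0.01 and the 15 genes of the ATF4 stress response one of -0.24. Without that array these were -0.07 and -0.26. The median over 14 glycolysis genes was -0.26, and -0.03 without it. Over 17 genes of cholesterol and fatty acid synthesis it was -0.08, and 0.06 without it, and over 19 DNA replication genes 0.04, and -0.03 without it. The 18 mitosis genes had medians of -0.09 and -0.12. Rrm2, a subunit of the enzyme that makes deoxyribonucleotides, had the smallest p of the replication list at 1.34 ± 0.45, with 0.60 and 0.02 on its other probe sets. Among markers of other cells, medians with and without the array were 0.02 and 0.09 over 5 alpha cell genes, -0.50 and -0.27 over 5 delta and PP cell genes, and -0.02 and -0.03 over 12 immune genes.

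Lists of beta cell genes, mitochondria and ribosome assembly had medians below 0 at 16 h, and each was nearer 0 without the array that stood apart. Over all 13176 genes 6883 were below 0, and 6464 without that array. Of 15 beta cell identity genes, 14 were below 0, with a median of -0.28, which was -0.11 with 11 below when exenatide 16 h replicate 3 was left out. The reference times differed more: the median of this list was -0.41 for 32 h against 8 h, and its mean per array was 0.58 ± 0.23 (SD) at 8 h, -0.05 ± 0.58 at 16 h and 0.11 ± 0.59 at 32 h. Pdx1, the master regulator, differed by -0.43 ± 0.21 at 16 h. Of 26 genes of insulin secretion and granules, 21 were below 0 (median -0.25, and -0.10 without that array). Oxidative phosphorylation genes were below 0 in 20 of 21, with a median of -0.62, and again in 20 of 21 but with a median of -0.21 without it. Ribosome biogenesis genes were below 0 in 22 of 24 (median -0.39) and in 17 of 24 without it (-0.12); Ncl, the gene of nucleolin, differed by -2.04 ± 0.73 with it and -1.33 without, while its 4 other probe sets ran from -0.27 to 0.08. The median of the unfolded protein response genes went from -0.23 over 20 genes to -0.03, and Herpud1, one of them, from -1.46 to -0.91, with -0.32 on its second probe set. Of these 5 lists no member passed the threshold with or without the array.

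Markers of tissues outside the islet moved the other way with the same array. All 17 acinar markers, all 9 tested skeletal muscle markers and all 8 skin markers were above 0 at 16 h, beside 47.8% of all genes. Their medians were 0.75, 0.68 and 0.33. Without exenatide 16 h replicate 3 the medians were 0.10, 0.01 and 0.07, with 11, 5 and 6 members above 0. The summed acinar level differed among the other arrays as well: the mean of the acinar markers ran from -1.15 to 0.83 at 8 h, from -0.33 to 3.45 at 16 h and from -0.76 to 2.82 at 32 h. Since the table is centred, no marker can be called absent. Without exenatide 16 h replicate 3 the difference was -1.16 for Dbp and 0.73 for Cry1. The part of these markers in the values of the beta cell genes, the oxidative phosphorylation genes, Dbp and Cry1 was not tested.

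**Figure D4:**
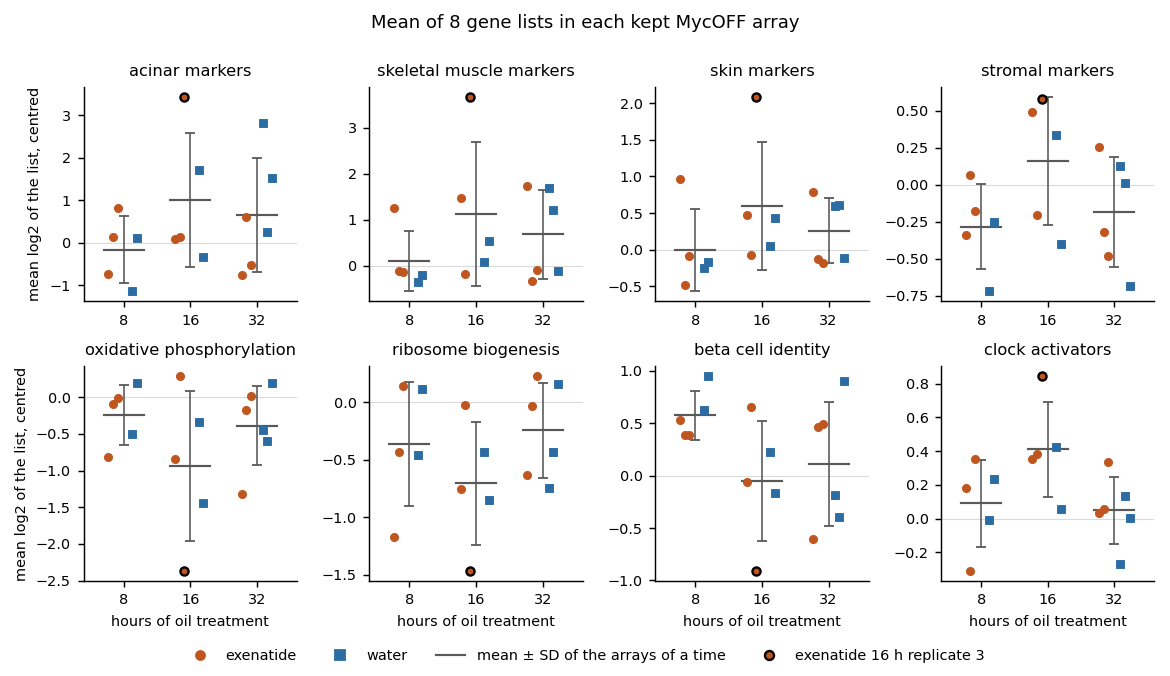
Mean centred log2 value of 8 gene lists in each kept MycOFF array at 8, 16 and 32 hours of oil treatment (circles exenatide, squares water, bars the mean and SD of a time; the black ring marks exenatide 16 h replicate 3). That array is the highest for acinar, skeletal muscle and skin markers, at 3.45, 3.68 and 2.09, and the lowest for oxidative phosphorylation, at -2.37.

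The same comparison was made in MycON islets, 4 arrays at 16 h against 10 at 8 and 32 h, which share no array with the one above. Here 153 genes passed (limma, adjusted p under 0.05; 1.16% of 13176), 84 rising (0.638%) and 69 falling (0.524%) at 16 h. Of the clock genes, Arntl was higher at 16 h by 0.61 ± 0.12 (SE, limma, adjusted p = 0.036) and Nfil3 by 0.95 ± 0.20 (0.0448). Hlf was lower than at 8 and 32 h by 1.69 on the log2 scale, with an SE of 0.35 (limma, adjusted p = 0.0376). Leaving out 1 array moved the count of 153 either way, and it rose to 171 without water 8 h replicate 3. The count fell to 51 without water 16 h replicate 2, 54 without water 16 h replicate 1, 62 and 98 without exenatide 32 h replicate 2 and replicate 1, 64 and 93 without water 32 h replicate 3 and replicate 2, 66 without exenatide 8 h replicate 1 and 92 without exenatide 16 h replicate 1. In the remaining fits it was 106 to 149. It was 17 with the left-out arrays included. The 4 Hlf arrays of 16 h ran from -0.08 to -0.0011 and the 10 others from 0.20 to 2.56, without overlap. In MycOFF islets Hlf ran from -0.17 to 0.09 at 16 h and from -0.49 to 1.65 at 8 and 32 h. The 16 h arrays of both states thus lay at like values, and the MycON arrays of 8 and 32 h mostly above the MycOFF ones. In MycON islets Hlf ran from 0.70 to 2.57 at 4 h and from -0.57 to 0.30 at 72 h. The clock gene calls were held by few settings: with each of the 14 arrays left out in turn, Arntl stayed called in 4 fits, Hlf in 4 and Nfil3 in 2. Dbp differed by -0.87 (interval -1.63 to -0.11), Nr1d2 by -0.57 and Cry1 by 0.35 in MycON islets, and none of the 3 passed.

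**Figure D5:**
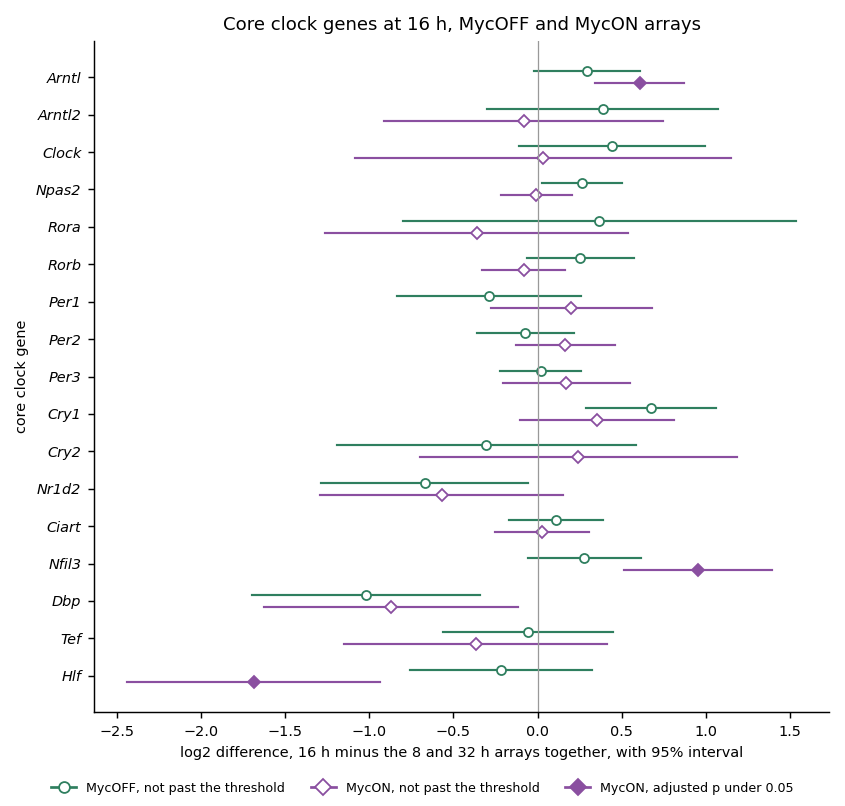
Log2 difference between 16 h and the 8 and 32 h arrays for the 17 tested core clock genes, with 95% intervals, in MycOFF (circles) and MycON arrays (diamonds); a filled symbol marks an adjusted p under 0.05. Dbp lies at -1.02 and -0.87 and Cry1 at 0.67 and 0.35, while Hlf lies at -0.22 in MycOFF and -1.69 in MycON islets.

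Whether the 16 h difference depended on MYC was tested as an interaction over all 30 arrays. It passed for 28 genes (limma, 0.213% of 13176), 18 with a larger value in MycON islets (0.137%) and 10 with a smaller one (0.0759%). The count ranged from 12 without MycOFF water 16 h replicate 3 to 73 without MycOFF exenatide 16 h replicate 2. It was also moved to 13 without MycON exenatide 8 h replicate 1 or 32 h replicate 2, to 16 or 17 without MycOFF water 8 h replicate 3, water 8 h replicate 1 or exenatide 16 h replicate 1, and to 43, 53, 65 and 67 without MycON exenatide 16 h replicate 3, MycOFF water 16 h replicate 2, MycON exenatide 16 h replicate 1 and MycOFF exenatide 32 h replicate 1. No core clock gene passed over the 30 arrays, and Hlf passed without the last of these: the interaction was 0.17 for Dbp (interval -0.86 to 1.19), 0.11 for Nr1d2 (-0.80 to 1.02), -0.32 for Cry1 (-0.89 to 0.24), 0.31 for Arntl (-0.09 to 0.71), 0.67 for Nfil3 and -1.49 for Hlf (-2.39 to -0.58), and the smallest adjusted p among the 17 was 0.151. The 5 genes of smallest p were Cdkn2d, a cell cycle inhibitor gene, with an interaction of 3.14 and a MycOFF difference of -0.55, Ak4, a mitochondrial adenylate kinase gene, at 0.10 in MycOFF and -2.78 in MycON islets, the innate immune receptor gene Cd14 with 1.84 in MycON islets and an interaction of 1.83, Tmem158 at 0.19 and -2.38, and the potassium channel gene Kcnq5 at 0.07 and -2.33. In MycON islets the 8 and 32 h arrays ran from 1.74 to 3.52 for Ak4, 1.43 to 3.09 for Tmem158 and 0.81 to 3.55 for Kcnq5. At 16 h these genes ran from -0.55 to 0.25, -1.22 to 0.38 and -0.17 to 0.84 in MycON islets. In the MycOFF arrays of 16 h they ran from -0.50 to 0.83, -1.16 to 0.10 and -0.24 to 0.20, so the states lay at like values there. The MycON arrays of 72 h were low as well, from -0.61 to 0.89, -0.84 to 0.03 and -0.27 to 0.59. Other probe sets of these genes varied less. Their interquartile ranges reached 0.20 for Ak4, 0.04 for Tmem158 and 0.22 for Kcnq5, against 2.53, 2.38 and 0.96 for those tested. The called MycON genes were read in the MycOFF arrays: of the 84 that rose, 37 were above 0 there, with a median of -0.03, and of the 69 that fell, 41 were below 0, with a median of -0.06. Over all genes 6293 of 13176 were above 0, which is 47.8%.

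With both states in one fit and MYC state as a covariate, an alternative chosen after seeing the data, 4 genes passed over the 30 arrays, all higher at 16 h (0.0304% of 13176). They were Col4a1 (0.81), Tnfaip2 (0.96), Phlda1 (0.85) and Fbxo4, a ubiquitin ligase subunit gene. In the MycOFF arrays alone Phlda1 differed by 0.68 ± 0.20 and Fbxo4 by 1.39 ± 0.49. Dbp was at -0.96 ± 0.25 and Cry1 at 0.53 ± 0.14 in this fit, each with an adjusted p of 0.208, and Arntl at 0.44 ± 0.10 with an adjusted p of 0.133.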

How the data were processed

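Per the labels' protocols, islet RNA of laser-captured sections was hybridised to Affymetrix mouse arrays. MAS5 and GCRMA are listed, with no role or version, in the submitters' processing notes, and how background was corrected is not stated there. The deposited values are log2, each of 45101 probe sets centred on its median over the 60 arrays; the base was inferred from the range (-12.3 to 12.8), since natural logs of 16-bit intensities end at 11.1. GEO's probe annotation gave 34945 probe sets 1 symbol and 932 several, which were left out with the 9160 without one.

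Per gene the probe set of widest interquartile range over the 52 kept arrays was used, and tested if that range was at or above its 40th percentile (0.101). This filter used spread because levels are unreadable. Fits used limma 3.58.1 in R 4.3.3 (lmFit, eBayes) with injection as covariate, and Benjamini-Hochberg adjustment over 13176 genes, and were tested on simulated data. Figures used matplotlib 3.10.9.

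The arrays and the gene lists were chosen with earlier results of these data known. The genes named by rule were the core clock genes, the 5 smallest p (3 where none passed) of the other comparisons, and the 5 genes most like Dbp. The 12 genes of smallest p in the 16 h comparison, the 2 per list and those without overlap were picked after their values were seen. Alternatives covered the filter, probe sets, quantile normalization, left-out arrays, array weights, the replicate block, the samples in the fit and the prior.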

Additional observations from a re-analysis of the deposited data

Results flagged for a closer look

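In 189 sets of values (a gene or list at 1 time in MycOFF islets, 5 or 6 arrays), 19 held an array whose gap to the nearest other exceeded Dixon's 95% value, and chance flags about 1 in 20 such sets. Exenatide 16 h replicate 3 accounted for 4: Ciart at 0.82 with the next at 0.03, the heat shock mean at -0.98 (next -0.16), the unfolded protein response mean at -1.34 (next -0.04) and the skin marker mean at 2.09 (next 0.47). Exenatide 16 h replicate 2 was high for Per1 (1.41, next 0.04), the mean of the clock repressors (0.54, next 0.07) and the duct marker mean (0.24, next -0.12). At 8 h, exenatide replicate 1 was high for Bhlhe40 (1.16, next -0.02), Bhlhe41 (1.5, next 0.23), the skeletal muscle mean (1.26, next -0.10) and the skin mean (0.97, next -0.09). Exenatide 8 h replicate 3 was high for Arntl2 (0.39, next -0.22) and the mitosis mean (0.59, next -0.17), and exenatide 8 h replicate 2 for Lum (-0.0053, next -0.45). At 32 h, water replicate 1 was high for Npas2 (0.23, next 0.05) and low for the immediate early mean (-0.76, next -0.21), water replicate 3 was high for Nfil3 (0.36, next 0.01), and exenatide replicate 1 was high for Per2 (0.70, next 0.04) and Hlf (1.65, next 0.25).

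The 16 h difference depended on MYC, by the interaction test of limma, in 28 genes. The interaction was 3.14 for Cdkn2d, -2.88 for Ak4, 1.83 for Cd14, -2.57 for Tmem158 and -2.40 for Kcnq5, MycON minus MycOFF.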

How the results depend on the processing

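The 16 h comparison in MycOFF islets kept 0 calls under the stricter filter, the mean over probe sets, quantile normalization, the left-out arrays included, 3-level time, all kept arrays, each injection alone and the replicate block. It called 1 gene, Ildr2, with no filter (adjusted p = 0.0327), with array weights (0.0014) and with a trend and robust prior (0.0286), and 4 with both MYC states. With 1 array left out it called 0 to 1 genes and 401 to 2162 at an unadjusted p under 0.05, the most without exenatide 16 h replicate 2. Dbp ranged from -1.65 to -0.57 and Cry1 from 0.39 to 1.08 over 13 alternatives, and no clock gene passed in MycOFF islets under any. Against 8 h alone, no filter gave 1 call, array weights 3 and single arrays left out 0 to 2; against 32 h alone, array weights gave 2. For 32 h against 8 h no setting gave a call. For injection by time, single arrays left out gave 0 to 10 calls, 10 without water 16 h replicate 3 and 3 without water 16 h replicate 2. The 24 h curve gave 1 call with the mean over probe sets, 2 with array weights and 0 to 1 with single arrays left out. The 153 MycON calls became 67 with no filter, 17 with the left-out arrays included, 255 with array weights, 2 in water and 9 in exenatide arrays, and 51 to 171 with single arrays left out, 51 without MycON water 16 h replicate 2. The 28 MYC by time calls became 54 with the mean over probe sets, 1 with the left-out arrays included, 89 with array weights and 12 to 73 with single arrays left out, 12 without MycOFF water 16 h replicate 3. The cause was not tested.

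Deviations from the group means correlated, over same-numbered arrays of different groups, between -0.39 and 0.41 (median 0.07). Over other numbers they correlated between -0.56 and 0.52 (median -0.03). These ranges overlap and were not tested, so they do not decide whether replicate numbers pair the arrays. With the replicate block, the MycOFF comparison kept 0 calls, MycON had 44 in place of 153 and MYC by time 18 in place of 28.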

Other observations

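The arrays of 8 and 16 h that the submitters left out differed from the kept ones in cell type markers. For the left-out MycON water 32 h replicate 1 this held for fewer markers. Its beta cell identity mean of -0.94 and immune mean of -0.38 lay within the kept arrays, and its endothelial mean of -1.33 lay below them. The mean of the beta cell identity genes was -4.53 in MycOFF water 8 h replicate 2 and -5.95 in MycOFF water 16 h replicate 1, and their immune marker means were 4.00 and 5.30. The first had Dbp at 1.23 and Col4a1 at -2.76, and the second had Dbp at 0.26, Arntl at 2.21 and Ildr2 at 3.10. The 2 left-out MycON arrays of 16 h had beta cell identity means of -6.17 and -6.07, skeletal muscle means of 9.75 and 10.43, and skin means of 7.80 and 7.96. They had Cdkn2d at -0.03 and 0.16, where the 4 kept arrays ran from 1.77 to 3.13, and Dbp at 1.98 and 3.13. The part of these markers in the values was not tested.

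At 72 h, MycOFF exenatide replicate 2 and the left-out water replicate 2 held high values of genes named above: Ildr2 was 6.27 and 5.56, Tnfaip2 was 3.82 and 3.80, and Gbp2 was 3.57 and 2.78. The immune marker mean of these arrays was 1.61 and 3.71, the stromal mean 3.00 and 3.24, and the beta cell identity mean -0.97 and -2.90. Their part was not tested.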
